A study of Mus musculus with 16 samples.

Results

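Cultured mouse aortic smooth muscle cells were compared between 60 and 480 min of treatment with platelet-derived growth factor BB (PDGF-BB), using the 60 and 480 min arrays of the wild-type and the Hey2 knockout time course. These are 4 of the 16 arrays of the series, chosen by their labelled time: 1 wild-type and 1 knockout array at each of the 2 times. The other 12 arrays, at 0, 15, 30, 120, 180 and 240 min, served to measure the spread and to place the 4 arrays in the course. All cells came from explanted aortas freed of adventitia, on a mixed C57BL/6 and 129SvJ background at passages 10 to 20. They were grown nearly to confluence, starved of serum, and given 5 ng/ml human PDGF-BB for the labelled time. RNA was hybridised to an Affymetrix mouse array, 1 array per genotype and time. The number of animals or separate cultures behind each array is not stated, so that each genotype may stand for a single line of cells. The knockout label names only Hey2, without describing the allele.

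The 4 arrays are described in 2 readings of their labels. In the reading as given, each genotype's 480 min array is set against its 60 min array and the differences are averaged. In the exchanged reading the labels of the wild-type pair trade places. The knockout pair on its own is the same in both readings, and what rests on it alone is given before the rest.

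PDGF-BB binds receptor tyrosine kinases on smooth muscle cells and is a strong mitogen and chemoattractant for them. The response of a quiescent cell to such a factor runs in waves. Immediate-early genes, mostly transcription factors such as Fos and the Egr and Nr4a families, are copied within minutes and without new protein synthesis. Their transcripts are short-lived. Delayed genes follow over hours and serve growth, among them genes of ribosome production and amino acid supply, while genes of the resting state decline. Hey2 is a transcriptional repressor of the Notch pathway that is active in vascular smooth muscle.

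The deposited values were linear signal intensities made by the authors with MAS5, and their brightness differed between arrays. The 2% trimmed mean of the signal was 299.5 on the wild-type 60 min array, 169.8 on the wild-type 480 min array, 238.8 on the knockout 60 min array and 224.2 on the knockout 480 min array. Over all 16 arrays it ran from 81.0 to 342.5. Arrays were therefore quantile normalized, and levels are given as log2 signal, which stands for log2(signal + 4.86). Array 3'/5' ratios, a sign of RNA and labelling quality, were lowest of the series on the wild-type array labelled 60 min, at 1.369 for Actb and 1.296 for Gapdh. On the other 3 arrays they lay between 1.902 and 2.113 for Actb and between 2.955 and 3.302 for Gapdh. The part of RNA quality in the differences below was not tested. Of 10 smooth muscle markers, 9 were above the detection filter on each of the 4 arrays. Their summed signal was 16420 and 14910 on the wild-type 60 and 480 min arrays and 7882 and 9726 on the knockout ones. Endothelial markers were near background, with a summed signal of 73.55 to 147 over the 9 markers on the array and between 1 and 4 of them above the filter. Of the 9, 5 were tested. Mesothelial markers were all 8 above the filter on 3 arrays and 7 on the wild-type 60 min array, and their summed signal was 13030 and 12800 in the knockout against 1507 and 968.5 in wild type.

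The genotype labels were checked first. The targeted gene Hey2 had a log2 signal of 4.39 on the wild-type array labelled 60 min and 6.32 on the wild-type array labelled 480 min, against 5.04 and 5.19 on the knockout arrays. The wild-type values lay on either side of the knockout pair, so Hey2 itself did not separate the genotypes on these arrays. On the other wild-type arrays Hey2 was at 6.72, 6.74 and 6.88 at 0, 15 and 30 min and at 4.24, 4.60 and 4.42 at 120, 180 and 240 min. The other knockout arrays lay between 4.82 and 6.09. With the allele undescribed, the probe set may lie outside the deletion, and its signal in the knockout checks nothing by itself. Hey2 on the wild-type array labelled 480 min was thus near its level on the early wild-type arrays, and on that labelled 60 min within its range on the late ones. In neither genotype did Hey2 pass the test between 480 and 60 min (limma, adjusted p = 0.942 in the knockout and 0.107 in wild type as labelled).

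Other genes did separate the genotypes. Over the other 12 arrays, 66 genes differed at least 8-fold between knockout and wild type, and each of the 4 arrays was placed between the wild-type mean, set to 0, and the knockout mean, set to 1. The median position was -0.017 for the wild-type array labelled 60 min and -0.038 for the wild-type array labelled 480 min, and 1.003 and 0.916 for the knockout arrays at 60 and 480 min. Stk26, a protein kinase gene, had log2 signals of 4.98 and 5.11 on the wild-type arrays and 11.18 and 10.65 on the knockout arrays. Col2a1, a cartilage collagen gene, was at 9.64 and 9.29 in wild type and 5.23 and 4.87 in the knockout. Lsr, a cell junction gene, was at 3.22 and 3.08 in wild type, below the filter, and 8.56 and 8.58 in the knockout. On the wild-type array labelled 60 min 92.4% of the 66 genes were nearer the wild-type mean, on that labelled 480 min 100% were, and on both knockout arrays 0%. By these genes all 4 arrays lay with their labelled genotype.

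The time labels were placed in the same way. Over the other 12 arrays, 522 genes were at least 2-fold higher at 120 to 240 min than at 0 to 30 min and 474 at least 2-fold lower, with 1 sign in both genotypes. In the knockout the rising genes stood at a median of 0.30 above the 0 min array at 60 min and 1.18 at 480 min, and the falling genes at -0.24 and -1.15. The knockout arrays at 120 to 240 min had medians of 1.11 to 1.39 for the rising genes. In wild type the order was the reverse, with medians of 1.50 for the rising genes on the array labelled 60 min and 0.42 on that labelled 480 min, and -1.53 and -0.26 for the falling genes. The wild-type arrays at 120 to 240 min had medians of 1.44 to 1.76 for the rising genes, and the 30 min array had 0.07. By these genes the wild-type array labelled 60 min lay among the late arrays of its genotype, and that labelled 480 min near the early ones.

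**Figure D1:**
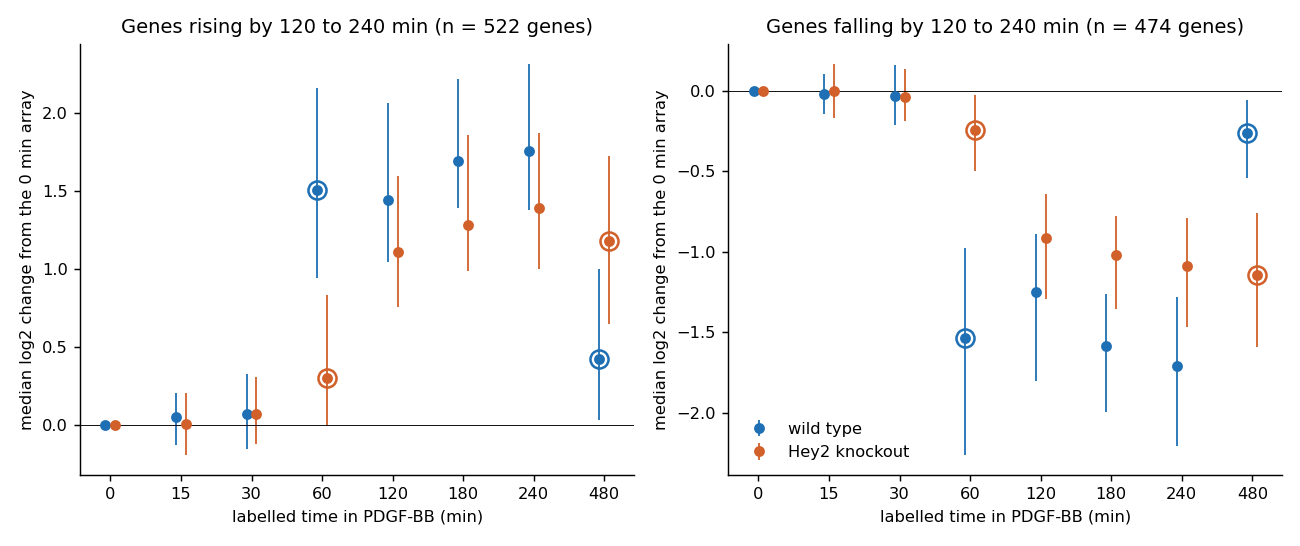
Median log2 change from the 0 min array of the same genotype, by labelled time in PDGF-BB, over the 522 rising genes (left) and the 474 falling genes (right), with bars from the 25th to the 75th percentile over genes and rings around the 60 and 480 min arrays. The wild-type array labelled 60 min is at 1.50 and -1.53 and the wild-type array labelled 480 min at 0.42 and -0.26, while the knockout goes from 0.30 and -0.24 at 60 min to 1.18 and -1.15 at 480 min.

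Correlations between arrays gave the same order as a description. Each array was expressed, over 14299 genes, as its deviation from the mean of its genotype at the 6 other times, so that arrays of a genotype share that mean. The wild-type array labelled 60 min correlated most with the knockout 480 min array (Pearson r = 0.548), then with wild type at 240 min (0.517) and knockout at 240 min (0.438). Its correlation with the knockout 60 min array was -0.206 and with wild type at 30 min -0.352. That labelled 480 min correlated most with the knockout 60 min array (0.403), then with knockout at 30 min (0.318) and wild type at 30 min (0.267), and its correlation with the knockout 480 min array was -0.251. Within the knockout, the 60 min array correlated with that at 30 min (0.322) and the 480 min array with that at 240 min (0.463).

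**Figure D2:**
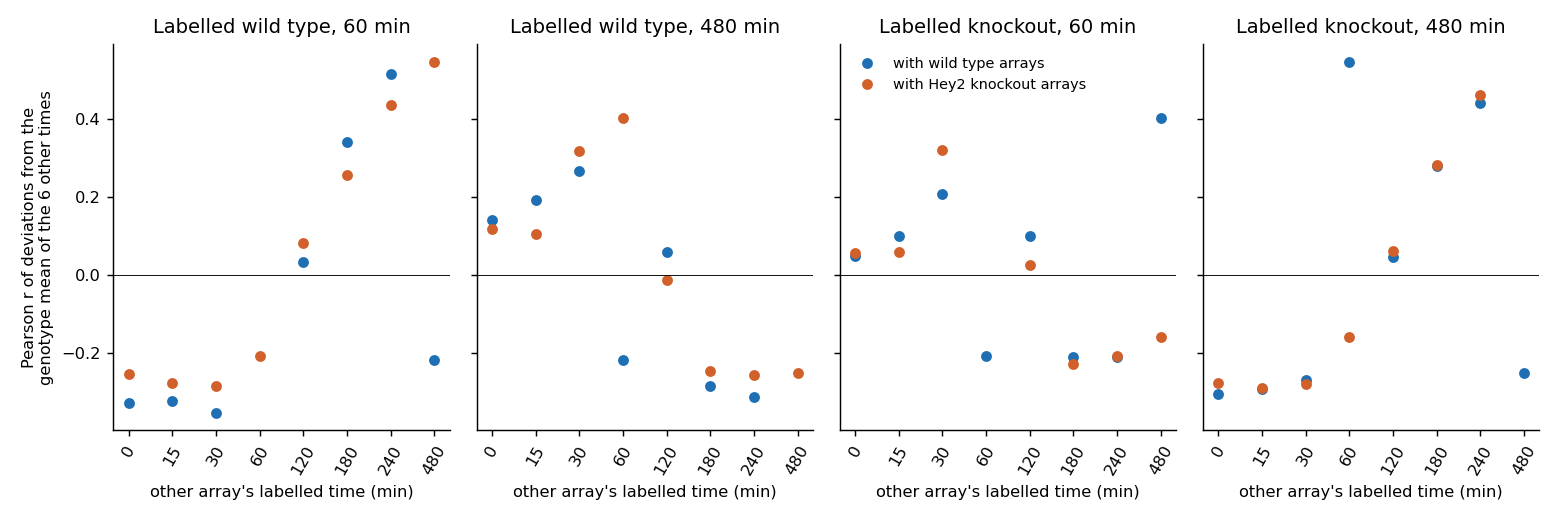
Pearson correlation, over 14299 genes, of each of the 4 arrays with every other array, plotted by the other array's labelled time; values are deviations from the genotype's mean at the 6 other times and colours give the other array's genotype. The wild-type array labelled 60 min peaks at 0.548 with the knockout 480 min array and the wild-type array labelled 480 min at 0.403 with the knockout 60 min array.

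A gene that moves in 1 direction from 30 to 120 min would lie between those values at 60 min, and this was counted as a further description. A gene that peaks near 60 min would not. The immediate-early list (below) had knockout medians above 0 min of 1.37, 2.76 and 1.74 at 30, 60 and 120 min. In the knockout, 43.1% of all genes on the 60 min array lay between the values of the 30 and 120 min arrays, against 26.6% on the 480 min array. In wild type the shares were 29.7% on the array labelled 60 min and 50.5% on that labelled 480 min. Over the 1895 genes that changed in the knockout pair (below), the shares were 41.8% and 4.22% in the knockout, and 7.97% and 49.4% on the wild-type arrays labelled 60 and 480 min. These genes were chosen for a difference between the knockout 60 and 480 min arrays. The gap between the knockout shares is therefore in part fixed by that choice. The root mean square distance of the wild-type array labelled 480 min from wild type at 30 min was 0.569 on the log2 scale, and that of the array labelled 60 min was 0.923. That labelled 60 min was at 0.775 from wild type at 120 min and at 0.589 from wild type at 240 min.

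From 60 to 480 min in the knockout, most immediate-early transcription factor genes fell, and most genes of amino acid supply and ribosome production rose. This rests on 2 arrays, whose spread was taken from the other 12. In all, 1895 of 14299 genes changed (limma, adjusted p under 0.05), of which 961 rose (6.72% of genes tested) and 934 fell (6.53%), and 1062 changed at least 2-fold. Among genes above the filter on both arrays, the greatest rises in log2 change were those of Bcat1 (5.27), Aldh1l2 (3.80), Asns (3.73), Hmga2 (3.46) and Mthfd2 (3.44), and the greatest falls those of Fosb (-5.01), Egr2 (-4.55), Nr4a1 (-4.27) and Nr4a3 (-4.23). Each time has 1 array, so the test assumes that a lone array varies as the other 12 did around time plus genotype. With the scaling as deposited 33 genes were called, of which 9 rose and 24 fell, and without the intensity trend in the variance 1093 were called.

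The immediate-early list holds transcription factor genes and also Arc. Of its 30 genes, 0 rose in the knockout, 22 fell and 8 did not pass the test. The median change was -1.60 against -0.004 over all genes. Relative to 0 min, the list's median was 1.37 at 30 min, 2.76 at 60 min, 1.74 at 120 min and 0.71 at 480 min in the knockout. Fosb, a partner of Jun proteins in the AP-1 factor, had log2 signals of 11.22 at 60 min and 6.21 at 480 min, a change of -5.01 (SE 0.48, limma adjusted p = 8.4e-05). Nr4a1, an orphan nuclear receptor gene, went from 12.66 to 8.38 (change -4.27, SE 0.27, limma adjusted p = 8.43e-06). Egr3, a zinc finger factor gene, went from 12.11 to 8.31 (change -3.80, SE 0.24). All 3 had been lower before stimulation: at 0 min in the knockout they were at 4.06, 6.38 and 4.80, so that at 480 min they were still above the level of resting cells.

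Fos, the AP-1 subunit used as the standard marker of the response, was at 12.64 at 60 min and 9.33 at 480 min in the knockout, a change of -3.31 (SE 0.48). In that genotype it had climbed from 10.31 at 0 min to 13.00 at 30 min. Junb fell from 10.71 to 7.92 and Atf3, a stress-responsive bZIP gene, from 12.54 to 9.19. Egr1 fell less, from 13.31 to 12.28 (change -1.04, SE 0.18). Fosl1, an AP-1 gene of the later wave, was at 10.36 and 10.17, and Myc, the growth regulator, at 11.02 and 10.33, and neither passed the test (limma, adjusted p = 0.895 and 0.0654). Arc, a neuronal cytoskeletal gene that is also immediate-early, had the widest change, from 9.90 to 3.29, but its 480 min value was below the filter.

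The promoters of the list, whether or not the gene fell, were searched because several of its genes are textbook targets of serum response factor, which binds the CArG box. In the RefSeq promoters (GRCm38.p6, the 250 bases before each start), 22 of the 30 genes had an entry, and the CArG box, searched on both strands, was in the promoters of 2 genes (9.09%), against 1.47% of all 32851 promoters. A gene with several starts has several promoters and counts once if any of them matched, whereas the share of all promoters counts each promoter. The shares are thus of unlike units, and a gene with several starts has more occasions for a match. The 2 genes were Egr2 and Srf, the gene of the factor itself, named here for the match. The stretches are shown with the box in capitals and 16 bases on each side, in the direction of the gene. The Egr2 stretches belong to different starts. Egr2 lies on chromosome 10 (plus strand, chr10:67537478-67537519 and chr10:67537781-67537822) and Srf lies on chromosome 17 (minus strand, chr17:46556219-46556260 and chr17:46556199-46556240).
Egr2 a: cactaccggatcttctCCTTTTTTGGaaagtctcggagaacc
Egr2 b: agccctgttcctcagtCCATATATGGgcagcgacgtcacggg
Srf a: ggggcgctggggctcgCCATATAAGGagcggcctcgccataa
Srf b: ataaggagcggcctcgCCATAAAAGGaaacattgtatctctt
Egr2 went from 12.35 to 7.80 in the knockout (change -4.55, SE 0.66), whereas Srf changed by -0.50 (SE 0.28) and did not pass the test. The cyclic AMP element TGACGTCA was in the promoter of 1 of the 22 genes (4.55%), against 1.55% of all promoters, and the E-box CACGTG in those of 5 (22.7%), against 6.02%. A match describes the letters of this window and is neither a binding site nor a cause.

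Genes that limit the early response moved less evenly. Of 10 genes of mRNA decay factors, 4 fell in the knockout and 0 rose (median -0.81). Zfp36, whose protein destabilises short-lived transcripts, went from 11.18 to 8.14 (change -3.04, SE 0.32), and Btg2, an antiproliferative recruiter of deadenylases, from 12.34 to 9.32 (change -3.02, SE 0.41). Of 19 feedback inhibitors of MAP kinase signalling, 4 fell, 1 rose and 14 did not pass the test (median -0.51). The phosphatase gene Dusp1 went from 12.56 to 11.21 and Dusp6 from 11.29 to 9.95, with changes of -1.35 (SE 0.17) and -1.33 (SE 0.23). Spry4, another inhibitor of the pathway, was at 10.34 and 8.40, a difference of -1.94 with an SE of 0.86 that did not pass the test.

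Among secreted products, 3 of 14 chemokine and cytokine genes fell and 0 rose (median -0.33). The neutrophil chemokine gene Cxcl1 went from 11.25 to 9.23 and the alarmin gene Il33 from 10.28 to 9.01. Il6 was at 9.05 and 7.05 and Ccl2 at 9.88 and 8.47 in the knockout, and neither passed the test (limma, adjusted p = 0.0763 and 0.186). Adamts1, a protease gene, went from 10.77 to 7.39 (change -3.37, SE 0.26), and Tgfb2, a growth factor gene, from 9.93 to 8.30 (change -1.64, SE 0.23). Ptgs2, which makes prostaglandins, was at 12.32 and 11.94 and Hbegf, a ligand of the epidermal growth factor receptor, at 11.92 and 11.21, and neither passed the test. Mmp13, a collagenase gene, rose from 7.54 to 9.25 and Serpinb2, a plasminogen activator inhibitor gene, from 7.52 to 10.00.

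**Figure D3:**
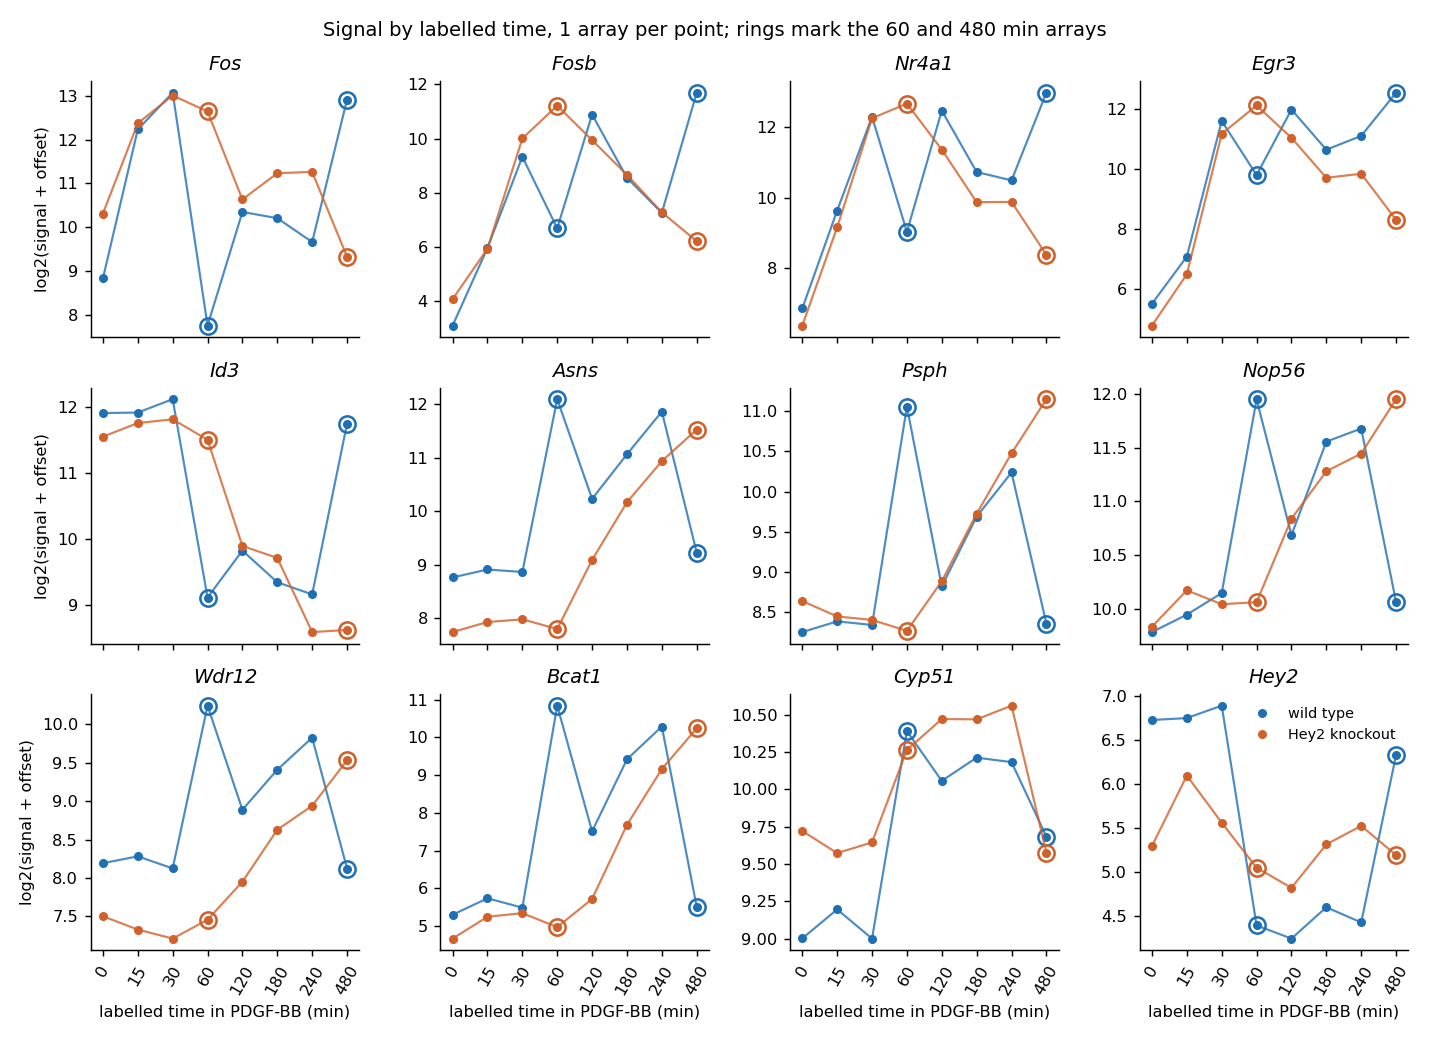
Log2 signal of 12 genes by labelled time in PDGF-BB in wild type and knockout, 1 array per point, with rings around the 60 and 480 min arrays. The knockout moves without a jump at either time for Nr4a1 and Asns, whereas the wild-type array labelled 60 min shows Asns at 12.10 and Nr4a1 at 9.03 and that labelled 480 min shows 9.23 and 12.96; Cyp51 falls from 60 to 480 min in both genotypes.

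Genes of amino acid supply rose. The ATF4 list holds 25 tested genes: targets of ATF4, the factor that answers amino acid shortage and growth signals, other genes of amino acid supply, and Atf4 itself. Of the 25, 16 rose in the knockout, 1 fell and 8 did not pass the test, with a median of 1.39. Atf4 changed by 0.26 (SE 0.13) and did not pass the test. The list's median above 0 min was 0.06 at 60 min, 0.52 at 120 min, 1.33 at 240 min and 1.47 at 480 min. Asns, asparagine synthetase, had log2 signals of 7.80 at 60 min and 11.53 at 480 min (change 3.73, SE 0.16, limma adjusted p = 4.62e-07). Psph, the last enzyme of serine synthesis, went from 8.27 to 11.15 (change 2.88, SE 0.18), and Shmt2, which passes the serine carbon to mitochondrial folate, from 8.79 to 11.46 (change 2.67, SE 0.17). Mthfd2 and Aldh1l2, enzymes of the same folate pathway, rose by 3.44 (SE 0.38) and 3.80 (SE 0.28). Slc7a5, a subunit of a leucine transporter, rose by 2.87 (SE 0.37) and Trib3, a pseudokinase gene induced by ATF4, by 2.93 (SE 0.31). Bcat1, which transfers the amino group of branched-chain amino acids, had the widest rise of the named genes. It went from 4.97 to 10.24 (change 5.27, SE 0.50), and stood at 4.67 at 0 min. Neither Bcat1 nor Aldh1l2 is a member of the list. The member that fell was Cebpb, named after its value was seen, a bZIP gene that is also immediate-early.

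The promoters of this list were searched for the amino acid response element, here TGATGNAA on both strands. Of 25 genes 22 had an entry, and 5 held a match (22.7%), against 3.45% of all promoters. Here too the former share counts genes and the latter promoters. The matches are shown in capitals with 16 bases on each side where the window allows, in the direction of the gene, so that some read as the reverse complement. The stretches are chr6:7693210-7693248 (minus strand) for Asns, chr8:111033714-111033753 (plus) for Aars, chr6:55037955-55037994 (plus) for Gars, chr2:119351033-119351072 (plus) for Chac1, and chr3:50443656-50443695 and chr3:50443637-50443676 (minus) for Slc7a11.
Asns: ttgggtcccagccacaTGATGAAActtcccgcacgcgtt
Aars: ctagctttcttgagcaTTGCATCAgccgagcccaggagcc
Gars: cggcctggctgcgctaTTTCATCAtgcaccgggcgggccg
Chac1: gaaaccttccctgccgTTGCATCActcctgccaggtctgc
Slc7a11 a: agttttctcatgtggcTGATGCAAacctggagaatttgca
Slc7a11 b: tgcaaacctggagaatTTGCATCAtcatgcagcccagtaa
Apart from Asns these genes are named for the match. Aars and Gars, transfer RNA synthetase genes, rose in the knockout by 1.39 (SE 0.13) and 1.31 (SE 0.14), and Slc7a11, the cystine transporter gene, by 2.31 (SE 0.54) from 2.72 at 60 min, which is below the filter. Chac1, a glutathione-degrading enzyme gene, differed by 0.86 (SE 0.40) and did not pass the test. The other genes of the list with an entry hold no match in this window, which says nothing about the factor.

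Of 34 genes of ribosome production, 31 rose in the knockout, 0 fell and 3 did not pass the test, with changes from 0.27 to 2.51 and a median of 1.28. The list's median above 0 min was 0.09 at 60 min, 0.65 at 120 min, 1.16 at 240 min and 1.50 at 480 min. Nop56, a core protein of the particles that methylate ribosomal RNA, went from 10.06 to 11.95 (change 1.89, SE 0.18, limma adjusted p = 8.63e-05). Wdr12, a large subunit processing factor gene, went from 7.46 to 9.53 and Rrp1b, a nucleolar protein gene, from 7.66 to 9.51, with changes of 2.08 (SE 0.19) and 1.85 (SE 0.19). The Myc-type E-box CACGTG was in the promoters of 2 of the 29 genes with an entry (6.90%), against 6.02% of all promoters. This again sets a share of genes beside a share of promoters.

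Other growth lists were set against the 6.72% of all genes that rose. Of 21 genes of hypoxia and glycolysis 1 rose and 0 fell. The riser was Ero1a, whose product helps to form disulphide bonds in the endoplasmic reticulum, and it went from 9.83 to 11.16. Of 21 heat shock and folding genes 6 rose and 1 fell, with a median of 0.12. The mitochondrial chaperone genes Hspd1, Hspe1 and Hspa9 rose by 0.92, 0.66 and 0.85. Hmga2, an architectural chromatin protein gene of growing cells, went from 8.52 to 11.98 (change 3.46, SE 0.52). Ccnd1, the cyclin of early cell cycle entry, was at 12.25 and 12.49 and Odc1, the polyamine enzyme gene, at 11.88 and 12.04, and neither passed the test.

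Genes of the resting state fell or did not pass the test. Of 27 FoxO targets and quiescence genes, 17 fell, 0 rose and 10 did not pass the test (median -1.05). Gas1 and Gas6, known for their induction at growth arrest, went from 9.90 to 8.27 and from 12.21 to 11.01, with changes of -1.63 (SE 0.24) and -1.20 (SE 0.15). The cyclin-dependent kinase inhibitor genes Cdkn2c and Cdkn1b fell by 1.68 (SE 0.24) and 0.91 (SE 0.18) on the log2 scale. Txnip, a thioredoxin inhibitor gene, was at 8.93 and 8.36 and did not pass the test.

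Targets of BMP and TGF-beta signals fell in part. Of 17 genes 7 fell and 0 rose, with a median of -0.78. Id2 and Id3, inhibitors of basic helix-loop-helix factors, went from 10.25 to 7.71 and from 11.50 to 8.62, with changes of -2.53 (SE 0.24) and -2.88 (SE 0.25). Tgfbr3, a co-receptor gene, fell from 10.01 to 8.18. Id3 had still been at 11.55 at 0 min and 11.81 at 30 min, so that its fall came after 60 min in this genotype.

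Of 17 genes of the circadian clock 6 fell and 1 rose (median -0.79). The period gene Per1 went from 8.31 to 6.25 (change -2.06, SE 0.28) and Nfil3, a repressor of the clock's output, from 11.26 to 8.99 (change -2.27, SE 0.51). Tef, an output activator gene, fell by 0.93 (SE 0.20) on the log2 scale. Of 22 interferon-stimulated genes 4 fell and 0 rose (median -0.84). The antiviral genes Ifit2 and Ifit3 went from 8.83 to 7.30 and from 9.03 to 6.85, with changes of -1.54 (SE 0.22) and -2.18 (SE 0.19).

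The cell cycle lists differed in their counts. Of 32 genes of G2/M and mitosis 11 fell in the knockout and 0 rose, with a median of -1.12. Cdk1, the mitotic kinase gene, went from 9.37 to 7.93 and Top2a, the decatenating topoisomerase gene, from 9.21 to 7.82, with changes of -1.44 (SE 0.27) and -1.39 (SE 0.24). Of 32 replication and G1/S genes 1 fell and 0 rose (median -0.23). That gene was Lig1, the replicative ligase, at 8.44 and 7.33.

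The contractile programme had no common direction. Of 20 contractile genes 3 rose and 1 fell in the knockout, with a median of -0.03 that turned to 0.03 under trimmed mean scaling. Actg2, the enteric smooth muscle actin gene, went from 4.44 to 5.94 and Tagln, an actin-binding protein gene, from 10.15 to 11.21. Mylk, the myosin light chain kinase gene, went from 7.93 to 6.33. Acta2, the smooth muscle actin gene used for identity, was at 12.52 and 12.70, and Cnn1 at 5.52 and 5.47, and neither passed the test. Of 28 collagen and matrix genes 7 fell and 2 rose. The fibrillar collagen gene Col3a1 went from 10.83 to 9.83 and Thbs1, a matricellular protein gene, from 12.58 to 11.59. Of 18 Notch pathway genes 1 passed the test, the ligand gene Jag1, from 11.25 to 9.97, while Hes1 was at 8.41 and 7.60 and Hey1 at 5.61 and 5.56.

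Markers of other cell types were counted in the knockout pair, where 6.72% of all genes rose and 6.53% fell. Of the tested markers, 0 of 5 endothelial and 0 of 3 adipocyte markers passed. Of 5 leukocyte markers 1 rose, Csf1r, from 6.20 to 8.57, and of 8 mesothelial markers 1 rose, Krt8, from 5.02 to 6.80. Of 6 adventitial fibroblast markers 1 fell, Dcn, from 12.09 to 11.15. The summed signal of the 7 on the array, tested or not, was 5150 at 60 min and 2894 at 480 min. Dcn alone made up 4354 and 2275 of these sums, so they mostly repeat that gene. Of the 6 tested markers, 2 had a change above 0 in the knockout. In a culture, fewer cells of a type and less RNA per cell cannot be told apart, and the part of these cells in the other changes was not tested.

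In the wild-type pair as labelled most genes called in the knockout had the opposite sign. Of 14299 genes 3403 changed (limma, adjusted p under 0.05), of which 1786 rose (12.5% of genes tested) and 1617 fell (11.3%), and 1991 changed at least 2-fold. Of the 1895 genes called in the knockout, 1847 (97.5%) had the opposite sign in wild type, and 1526 were called in the opposite direction, which is 80.5% of the knockout calls and 44.8% of the wild-type calls. Among them, 782 rose in the knockout and fell in wild type and 744 fell and rose. Over all 14299 genes 26.8% had the same sign in both genotypes, and the changes had a Pearson r of -0.606 and a Spearman rho of -0.588, across genes, which are not independent replicates. With the scaling as deposited 91 genes were called in the wild-type pair, of which 18 rose and 73 fell. Under it the median over all genes in this pair went from 0.02 to -0.68 on the log2 scale, and changes are relative to that shift.

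Some genes named for a wide change in the knockout or the exchanged contrast are given here. Csrnp1 was named only among genes with opposite signs in the genotypes, so its opposite directions were fixed by that choice. Pde5a, the cyclic GMP phosphodiesterase gene of smooth muscle, was at 5.75 and 10.03 on the wild-type arrays labelled 60 and 480 min and at 9.84 and 6.47 on the knockout arrays. Fmo2, a flavin monooxygenase gene, was at 3.56 and 7.50 in wild type and at 8.40 and 4.64 in the knockout, with the first value below the filter. Csrnp1, an immediate-early nuclear protein gene, was at 7.02 and 11.56 in wild type and at 11.32 and 8.47 in the knockout. In all 3 the wild-type array labelled 60 min and the knockout 480 min array were the low ones. Dctd, deoxycytidylate deaminase, was at 9.01 and 6.34 in wild type and at 5.81 and 8.71 in the knockout, with the same arrays high. The receptor gene Pdgfrb was at 11.39 and 11.87 in wild type and 11.43 and 11.26 in the knockout, and it passed the test in neither pair.

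**Figure D4:**
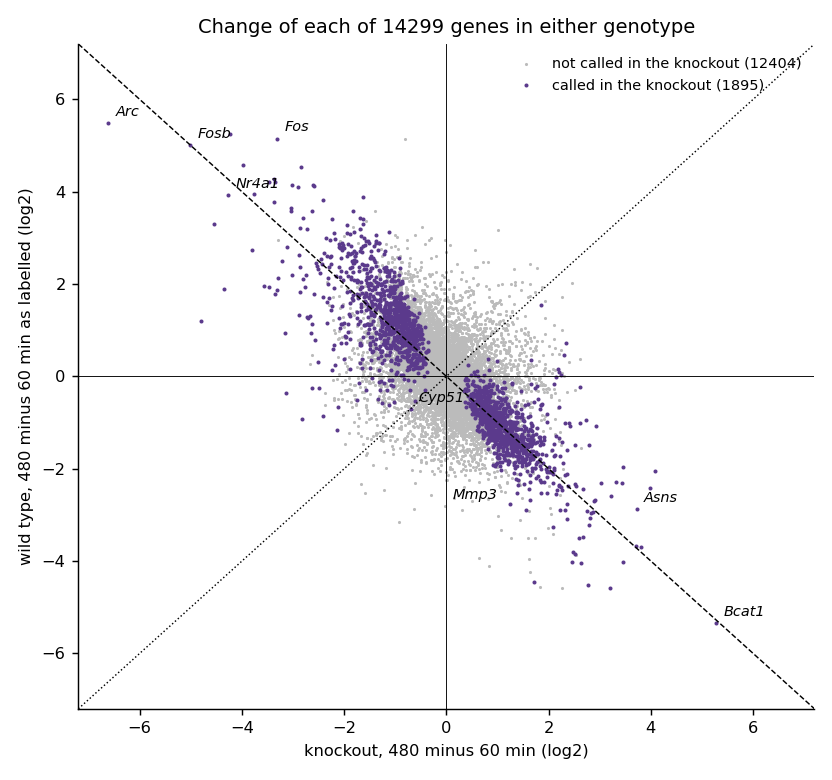
Log2 change from 60 to 480 min of 14299 genes, the knockout on the x axis and wild type as labelled on the y axis, with the 1895 genes called in the knockout in colour; the dotted line marks equal and the dashed line opposite changes. The coloured points lie along the dashed line (1847 of 1895 with opposite signs), and Cyp51 is on the side of equal change.

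The single genes given here were picked as examples of opposite changes in the pairs. Fosb, Fos, Asns and Bcat1 were also among the genes named for opposite signs. Opposite changes were not always of equal size: in the knockout and wild type they were 2.93 and -1.07 for Trib3 and 1.71 and -4.46 for Mmp13. Fosb was at 6.68 on the wild-type array labelled 60 min and 11.70 on that labelled 480 min, a change of 5.01 against -5.01 in the knockout. Nop56 was at 11.95 and 10.06 in wild type and at 10.06 and 11.95 in the knockout. Fos was at 7.76 on the wild-type array labelled 60 min, below all other 15 arrays, and at 12.91 on that labelled 480 min, while the wild-type arrays at 15 and 30 min were at 12.23 and 13.07. Asns was at 12.10 and 9.23 in wild type, Psph at 11.06 and 8.36 and Bcat1 at 10.84 and 5.50. For each of these genes the 2 arrays labelled 60 min lay far apart, and the arrays labelled 480 min likewise, so that the labelled times overlapped.

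Several lists had opposite directions in the genotypes. Of the 30 immediate-early genes 27 rose in wild type as labelled and 0 fell, with a median of 1.86, and 29 had opposite signs in the 2 genotypes. Of 34 ribosome production genes 33 fell and 0 rose (median -1.28), with opposite signs for 33. Of the 25 genes of the ATF4 list 14 fell and 4 rose (median -1.01), with opposite signs for 21. Among the genes of that list that rose in wild type was Ddit3, a stress-induced bZIP gene, which is described below. Of 27 quiescence genes 20 rose and 0 fell (median 1.24), with opposite signs for 24, and of 17 BMP and TGF-beta targets 10 rose and 1 fell. Wild type had more calls than the knockout over all genes, 3403 against 1895, and whether any list exceeded this was not tested. In wild type 8 of 22 interferon-stimulated genes rose, 10 of 21 hypoxia and glycolysis genes fell, and 10 of 17 circadian genes rose and 2 fell.

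**Figure D5:**
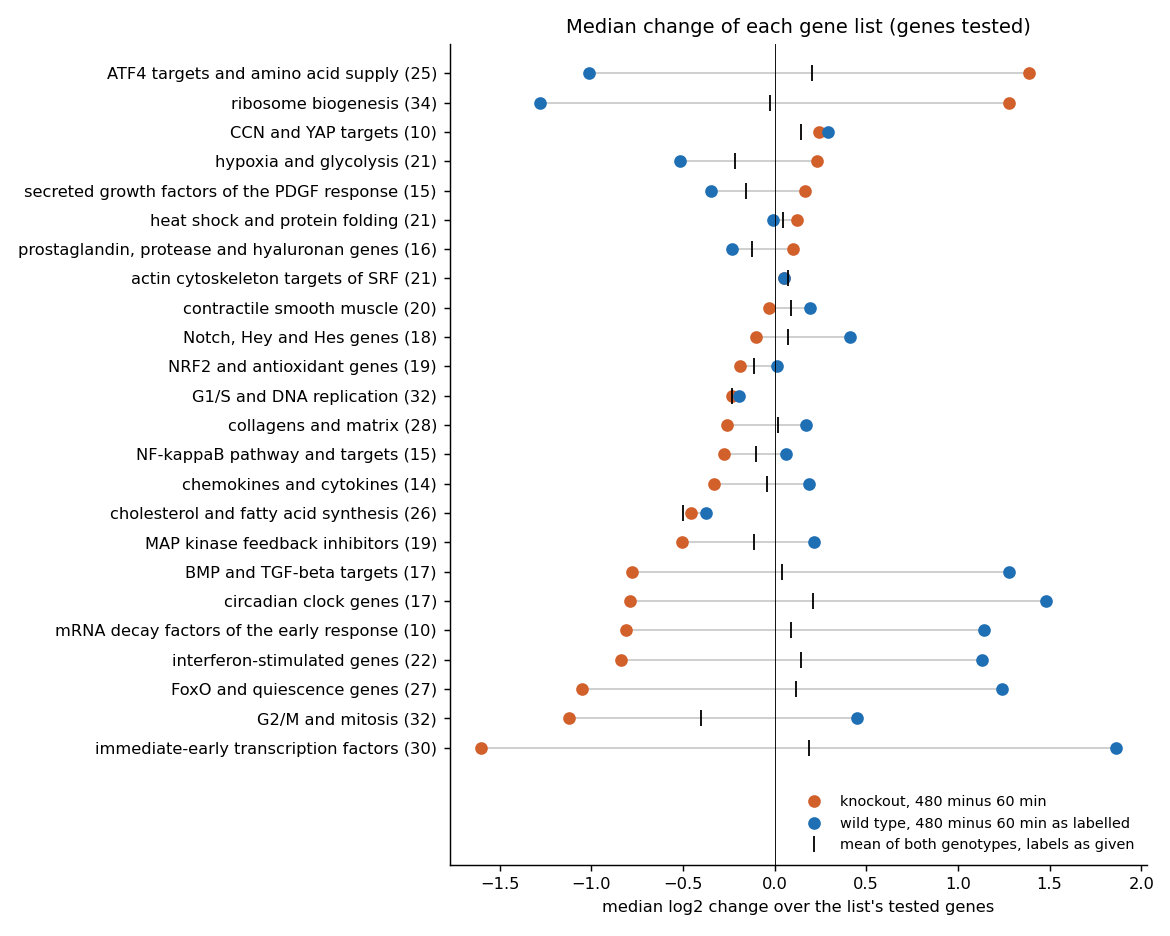
Median log2 change from 60 to 480 min over the tested genes of each list, for the knockout, for wild type as labelled, and for the mean of both genotypes with labels as given; points are the genotypes and short vertical marks the mean. The immediate-early list runs from -1.60 in the knockout to 1.86 in wild type and the ribosome list from 1.28 to -1.28, while the cholesterol list is below 0 in both, at -0.46 and -0.37.

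With the labels as given, the changes of the 2 genotypes largely cancelled. Of 14299 genes 0 were called between 480 and 60 min (0% at adjusted p under 0.05, limma), with a smallest adjusted p of 0.104, and 1081 genes (7.56%) had an unadjusted p under 0.05. The median change was 0.01 and 2.50% of genes changed more than 2-fold, against 15.6% in the knockout alone and 21.2% in wild type alone. The immediate-early list had a median of 0.19 and the ribosome list of -0.03. Fosb changed by 0.00 (SE 0.34), Nop56 by 0.00 (SE 0.13) and Bcat1 by -0.03 (SE 0.35). No gene was called in a fit of the 4 arrays with genotype as a block either, where 46 genes had an unadjusted p under 0.05, nor in a fit of all 16 arrays as time plus genotype, where 344 did. An exact permutation test of 2 against 2 arrays cannot go below a two-sided p of 0.333.

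Not every gene cancelled. The test placed 1 gene, Cyp51, among the calls of both genotypes with the same sign. Cyp51, the lanosterol demethylase of cholesterol synthesis, was at 10.39 and 9.68 on the wild-type arrays labelled 60 and 480 min and at 10.26 and 9.58 on the knockout arrays. Both arrays labelled 480 min were below both labelled 60 min, with changes of -0.71 in wild type and -0.69 in the knockout (SE 0.18 each, limma adjusted p = 0.015 and 0.0281). The mean of -0.70 had a limma adjusted p of 0.145 with the labels as given. On the 0, 15 and 30 min arrays Cyp51 was at 9.20 or less in wild type and between 9.57 and 9.72 in the knockout, and at 120 to 240 min between 10.06 and 10.21 and between 10.47 and 10.56. For this gene the wild-type array labelled 480 min was thus above the early and below the late wild-type arrays.

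Genes of sterol and fatty acid synthesis leaned the same way. Of 26 genes 0 rose in the knockout and 7 fell, 0 rose in wild type and 6 fell, and 9 had opposite signs, against 33 of 34 for ribosome production. The list's median with labels as given was -0.50, against 0.01 over all genes, and -0.97 and -0.52 with the scaling as deposited and by trimmed mean, where all genes had -0.41 and 0.02. Among the falls were Fdft1, squalene synthase, from 11.40 to 10.29 in the knockout and at 10.58 and 10.51 in wild type, and Idi1, from 10.87 to 9.62 in the knockout and at 10.68 and 10.12 in wild type. Fdps, farnesyl diphosphate synthase, named after its value was seen, was at 9.84 and 8.46 in wild type and at 9.89 and 9.75 in the knockout. Hmgcs1, the enzyme that opens the pathway, fell from 12.39 to 11.11 in the knockout and was at 11.83 and 11.72 in wild type. Of the 26 genes 19 did not pass the test in the knockout and 20 did not in wild type, and the list is described here without a test.

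Apart from sterol genes, the smallest p-values with labels as given included Mmp3 and Ddit3, named after their values were seen, whose change was wider in wild type than in the knockout. Mmp3, stromelysin, was at 10.54 on the wild-type array labelled 60 min and 7.72 on that labelled 480 min, and at 10.90 and 10.88 in the knockout. The other wild-type arrays lay between 8.16 and 8.97, so the array labelled 60 min was above every other wild-type array. Ddit3 was at 9.78 and 11.35 in wild type and at 9.92 and 10.37 in the knockout (mean change 1.01, SE 0.17, limma adjusted p = 0.104). When the 240 min arrays were left out of the spread, 10 genes passed the test with labels as given, of which 8 were higher and 2 lower: Mmp3, Lpl, Herpud1, Edn1, Lmcd1, Kank1, Mmp13, Angpt2, Nkain4 and Ddit3. Of these, 8 had opposite signs in the genotypes and a wider change in wild type, such as Angpt2 with -1.64 in the knockout and 3.89 in wild type, and only Mmp3 and Ddit3 had the same sign in both.

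With the wild-type labels exchanged, the changes of the knockout pair and the wild-type pair added up. Of 14299 genes 4431 were called (limma, adjusted p under 0.05), of which 2137 were higher at 480 min (14.9% of genes tested) and 2294 lower (16%), and 1690 of them at least 2-fold. With the scaling as deposited 238 were called, of which 150 were higher and 88 lower. A fit of the 4 arrays alone with genotype as a block called 3247 genes, and without the block, where the genotype difference enters the spread, 20. This contrast is by construction the interaction divided by 2, that is, the interaction between genotype and time in the labels as given, and has the same p. The 4 arrays therefore give the same number of calls for exchanged wild-type labels and for an opposite response of the genotypes with correct labels, and these cannot be told apart from the contrast itself.

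In the exchanged reading the immediate-early, ribosome, ATF4 and quiescence lists had the direction they had in the knockout. The exchanged contrast averages the knockout change with the wild-type change of turned sign. Lists with opposite directions in the genotypes as labelled therefore keep the knockout direction by construction, which is no evidence for exchanged labels. Of the 30 immediate-early genes 29 were lower at 480 min and 0 higher (median -1.70), and of 34 ribosome genes 33 were higher and 0 lower (median 1.23). The ATF4 list had 18 of 25 genes higher and 2 lower. Of 27 quiescence genes 23 were lower and 0 higher, of 17 BMP and TGF-beta targets 11 lower and 1 higher, and of 22 interferon-stimulated genes 11 lower and 0 higher. The sterol list, with 0 higher and 7 lower in the knockout, had 4 higher and 4 lower and a median of -0.02. Fos was lower by 4.23 (change -4.23, SE 0.34) and Asns higher by 3.30 (SE 0.11, limma adjusted p = 2.9e-08). Angptl4, a secreted lipase inhibitor gene, was at 10.51 and 5.94 on the wild-type arrays labelled 60 and 480 min and at 6.96 and 8.80 in the knockout (exchanged change 3.20, SE 0.41), and did not pass the test in the knockout alone (adjusted p = 0.0588). Pdgfra, the gene of a PDGF receptor, was at 5.81 and 7.55 in wild type and at 7.43 and 5.93 in the knockout (exchanged change -1.62, SE 0.38), and Il6 at 6.48 and 9.51 against 9.05 and 7.05 (exchanged change -2.52, SE 0.48). Neither passed in the knockout alone, so these calls rest on the wild-type labels.

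What rests on the knockout arrays alone is the fall of the immediate-early, quiescence and BMP genes and the rise of the ATF4 and ribosome genes, with the counts given for that pair. With the 2 wild-type arrays kept out of the normalization, the filter and the fit, 1905 genes were called in the knockout, 962 higher and 943 lower, and 1886 of them were among the 1895. The directions of the 5 lists held under the deposited and the trimmed mean scaling as well. The wild-type array labelled 60 min had the lowest 3'/5' ratios of the series and a high brightness, while the ratios of the array labelled 480 min lay near those of the knockout pair, and the part of these differences in the wild-type values was not tested.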

How the data were processed

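The deposited table held 45101 probe sets on 16 arrays. The authors deposited linear signal intensities; MAS5 is the tool that the submitters' processing notes name, and its version and scaling target were not stated. Groups came from the sample titles, and all columns of the table belong to a sample of the series. Arrays were quantile normalized and set on a log2(signal + 4.86) scale, whose added constant (the 20th percentile) shrinks differences at low signal. Tests took probe sets with a normalized signal over 16, the 40th percentile, in 3 or more arrays. Of the probe sets, 34945 had 1 gene symbol, 932 several and 9160 none in the platform annotation, beside 64 controls; 34741 of those with 1 symbol matched a RefSeq gene of GRCm38.p6. Each gene was its brightest tested probe set with 1 symbol, which left 14299 genes. Of 145 named genes 73 had several tested probe sets, and for 0 of them another was called in the opposite direction in the knockout. Only genes called in the knockout by their brightest probe set could be counted, so this says nothing about the others.

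Fits used limma 3.58.1 in R 4.3.3. Each of the 4 arrays had its own coefficient, and the other 12 were fitted as time plus genotype, which gave 5 residual degrees of freedom and a prior of 6.80. Empirical Bayes moderation used an intensity trend, and p-values were adjusted by Benjamini-Hochberg over all genes at 0.05. Standard errors (SE) are those of the fit. p-values set a change against the residual of the other 12 arrays, which is the disagreement of the genotypes over time. No group has a replicate array, so biological and technical parts of that residual cannot be told apart. The fits were tested on simulated data. Arrays have no read depth; their number limits the precision. The members, gene lists, named genes and tests were chosen with earlier results of these data known. Named were the 10 greatest rises and falls of the knockout pair. For the labels as given and exchanged, the 8 greatest of each with all 4 arrays above the filter were sought. With labels as given these had to have the same sign in both genotypes, and for the exchanged contrast opposite signs as labelled. Also named were the members of each list with the 3 lowest knockout p-values, a fixed set of response genes, and the leading genes of the genotype and time lists. Other named genes are marked as such. Alternatives were the scaling, offset, filter, probe set choice, variance model, a 2-fold minimum, the arrays behind the spread, and fits of the 4 arrays alone.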

Additional observations from a re-analysis of the deposited data

Results flagged for a closer look

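The change from 60 to 480 min differed between the genotypes as labelled for 4431 of 14299 genes (interaction of genotype and time, limma, adjusted p under 0.05), and for 113 of the 145 named genes. This is the exchanged contrast multiplied by 2, so it adds no evidence beside it. Values here are the log2 change in the knockout minus that in wild type as labelled, each from 4 arrays, and all had a limma adjusted p of 0.000175 or less. The genes were named for a wide change in the knockout or the exchanged contrast, so low p-values here follow from that choice. The greatest differences above 0 were 10.61 for Bcat1 and 7.501 for Aldh1l2. Among enzymes and transporters of amino acid and one-carbon supply, the difference was 6.597 for Asns, 5.761 for Mthfd2, 5.58 for Psph and 5.816 for Slc7a5, and for the ATF4 target Trib3 it was 4.007. The secreted products Angptl4, Mmp13 and Serpinb2 had 6.409, 6.169 and 6.274. Other differences above 0 were 7.291 for Crct1, 6.473 for Mcrip2, 5.579 for Dctd, 5.419 for Hmga2 and 5.339 for Lhfpl2.

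The named genes below 0, chosen for the size of their change, included immediate-early genes. The difference was -10.02 for Fosb, -9.473 for Nr4a3, -8.461 for Fos, -8.209 for Nr4a1, -7.846 for Egr2, -7.549 for Atf3 and -6.53 for Egr3, and -7.392 for Csrnp1. Others below 0 were -8.564 for Elobl, -7.708 for Fmo2, -7.65 for Pde5a, -7.155 for Adamts1 and -5.144 for Aox3. Whether exchanged labels or a difference between genotypes underlies these values cannot be told apart within the 4 arrays.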

How the results depend on the processing

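The count of 0 genes with labels as given held under all alternatives except the leave-one-out of the other times, where it ran from 0 to 10; at an unadjusted p under 0.05, chosen after seeing the data, it was 1081. With the scaling as deposited the counts were 238 with wild-type labels exchanged, 33 in the knockout alone and 91 in wild type alone, and with a 2-fold minimum they were 1690, 1062 and 1991. Without the intensity trend 1093 genes were called in the knockout alone, and without the genotype block the 4 arrays gave 20 with labels exchanged. Leaving out each other time in turn gave 4263 to 4509 with labels exchanged, 1698 to 1995 in the knockout and 3181 to 3435 in wild type. All other alternatives left these counts within 1.5 times of the reported ones. The deposited scaling moved the median of all genes to -0.41 with labels as given, 0.30 with labels exchanged, -0.09 in the knockout and -0.68 in wild type; the cause of its lower counts was not tested. In the knockout alone, no named gene that was called changed direction under any alternative run. Many calls were lost, however. With the scaling as deposited, 79 of the 145 named genes lost their knockout call and 1 gained a call, and without the intensity trend 19 lost it. Only genes that had a call could lose it, so these losses are larger shares of the called genes than of the 145. The 64 named genes labelled the same under the deposited scaling include those called in neither fit. No paired analysis was possible because each group has 1 array and the labels give no replicate number to pair by; the fits with genotype as a block match arrays by genotype only.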
